A study of Mus musculus with 2 samples.

Results

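The genes described here encode the proteins of the cytosolic ribosome. They were taken by name, as mouse symbols built from Rpl or Rps with a plain subunit number (Rpsa and Rplp0 to Rplp2 included), with at least 100 reads summed over both libraries. Of 76 symbols that matched, 75 passed this minimum, among 35275 gene identifiers in all, with 45 genes of the large subunit and 30 of the small subunit. The rule used their symbol and this summed count, not the difference between the libraries, and the count itself is not a finding. The set was picked with earlier results of these data known, so its shift below is description and not a blind test. Rpl24, with 10 reads in the mutant and 11 in the control library, was the symbol left out, and the members nearest above the minimum were Rps27, with 357 mutant and 326 control reads, and Rpl23a, with 539 mutant and 412 control reads.

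The samples were mesenchymal stem/progenitor cells (MSPC), marrow stromal cells with the capacity to make bone, fat and cartilage, which support blood stem cells. One group was Ptpn11E76K/+ with Nestin-Cre (mutant, n = 1 library) and the other Ptpn11+/+ with Nestin-Cre (control, n = 1 library), both on the C57BL/6 strain. Ptpn11 encodes SHP2, a phosphatase in RAS-ERK signalling, and the mutant allele gives an overactive enzyme. Cre under nestin control acts in nestin-expressing cells, and the sources used here give neither the share of sorted cells with the switched allele nor age, sex or the number of animals pooled. Freshly isolated marrow cells were sorted by surface proteins, keeping CD140+ Sca-1+ cells and leaving out those with CD45, Ter-119 or CD31, and polyadenylated RNA was sequenced. With 1 library per genotype there is no replicate check, so no test was run. Every interval below is a 95% exact counting interval, which covers counting error only and compares these libraries, not the genotypes.

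Ribosomal proteins join ribosomal RNA in the nucleolus to build the small subunit, which decodes mRNA, and the large subunit, which forms peptide bonds. Most are present in a single copy per ribosome, and their genes are among the most expressed of any cell. Their mRNAs typically start with a C followed by a run of pyrimidines, the 5′ terminal oligopyrimidine (TOP) tract, through which mTOR signalling controls their translation, while MYC raises transcription of ribosome genes. In humans, loss of a single copy of many of these genes causes Diamond-Blackfan anaemia, a failure of red cell production in the marrow.

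The mutant library held 18010963 reads and the control library 22328659. Ptpn11 itself was 1.13-fold higher in the mutant library (1.08 to 1.17), a value that does not check the genotype, since a count per gene does not tell the alleles apart. Of the sort genes, Ptprc (CD45) had 12 mutant and 1 control reads and Pecam1 (CD31) 2 mutant and 5 control reads, Pdgfra (CD140a) was 1.15-fold higher in the mutant (1.08 to 1.23), Pdgfrb (CD140b) 1.23-fold lower (1.18 to 1.28), and Ly6a (Sca-1) was 2.67-fold lower in the mutant (2.44 to 2.93). Nes, whose promoter drives the Cre, was 2.76-fold higher (2.67 to 2.86). Of 21 myeloid markers, 11 reached 20 reads and 10 of these were higher beyond 1.5-fold in the mutant library. Of all 13142 genes with at least 20 reads, 15.7% were. Those 20 reads were summed over both libraries. A marker can therefore enter through the library where it is higher, and the count is not a test. The summed level of the 21 markers was 61.5 CPM (counts per scaled library total) in the mutant and 14.8 CPM in the control, with 6 of the 21 at 0 in the mutant and 11 at 0 in the control. Of 10 endothelial markers 2 reached 20 reads (summed level 2.47 CPM in the mutant and 1.51 in the control, 4 at 0 in the mutant and 5 in the control). Of 15 markers of other blood cells 1 did (8.22 CPM in the mutant and 6.87 in the control, 9 at 0 in the mutant and 11 in the control). Their part in the results was not tested.

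Ribosomal protein genes were higher as a block in the mutant library. Together the 75 genes took 5.83% of all reads in the mutant (exact binomial interval 5.816 to 5.838) and 3.43% in the control (3.423 to 3.438), and their summed reads were 1.82-fold higher after scaling of the libraries (1.82 to 1.83). The median gene was 1.90-fold higher, a log2 ratio of 0.93, against a median of 0.01 over the 13142 genes with at least 20 reads, called measured here. Of the 75 genes, 71 had a whole interval above equality and 4 had one below it, against 39.6% of all measured genes above and 37.4% below. Intervals narrow with read depth, and the members held more reads than most measured genes, so these shares are not matched for depth. In bulk RNA a change in the mix of cells and a change in RNA per cell cannot be told apart.

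A gene was called when its whole interval lay beyond a given fold. Beyond 1.5-fold, 67 of the 75 ribosomal protein genes were called higher (89.3%) and 0 lower, against 15.7% of all measured genes called higher and 15.6% called lower. Of the 6852 measured genes with at least 1000 reads, members included, 1232 were called higher and 891 lower. Beyond 2-fold, 15 of the 75 were called higher and 0 lower, against 6.99% of measured genes called higher and 8.29% called lower. The share beyond 2-fold is the less stable of these values, because many members lay close to 2-fold. It was 6 genes (8.0%, against 5.75% of measured genes) when libraries were scaled to total counts. When trends over transcript length and GC content were removed it was 4 genes (5.33%), below the 6.36% of measured genes.

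**Figure D1:**
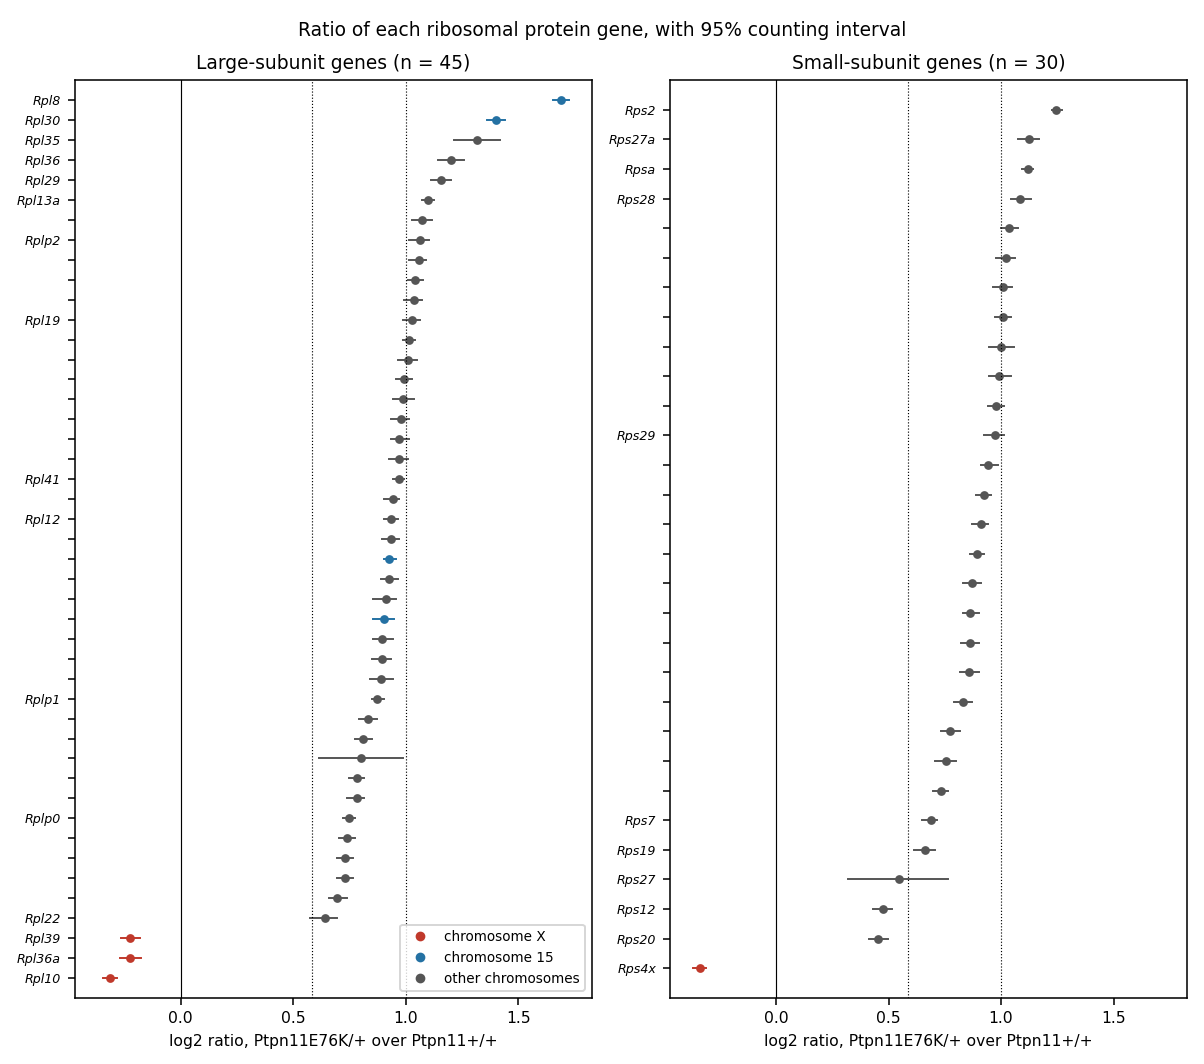
Ratio of each of the 75 ribosomal protein genes, mutant over control, on a log2 axis, for the large subunit (left panel) and the small subunit (right panel). Points are ratios and bars their 95% counting intervals, dotted lines mark 1.5-fold and 2-fold, gene names are printed for the genes picked by the naming rule, and the 4 genes of chromosome X lie left of 0 while the other 71 lie right of it.

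Both subunits showed the same pattern. The 45 large-subunit genes had a median log2 ratio of 0.93 and summed reads 1.83-fold higher in the mutant (1.83 to 1.84), and the 30 small-subunit genes had a median of 0.90 and summed reads 1.81-fold higher (1.80 to 1.81). Beyond 1.5-fold, 41 of the 45 and 26 of the 30 were called higher. The members moved as a narrow band. The SD of the log2 ratio was 0.33 over the 75 genes, against 0.81 over the 6779 other genes with at least 1000 reads. The interquartile ranges, which extreme genes move less, were 0.23 and 0.87. Those 6779 genes include chromosome X, and most hold fewer reads than the members. Over the 71 members that are not on chromosome X the SD was 0.20. A total of 61 of the 75 lay within 0.25 log2 units of the members' median. Counting error was small beside this spread, since the log2 interval of a member had a median width of 0.0775.

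**Figure D2:**
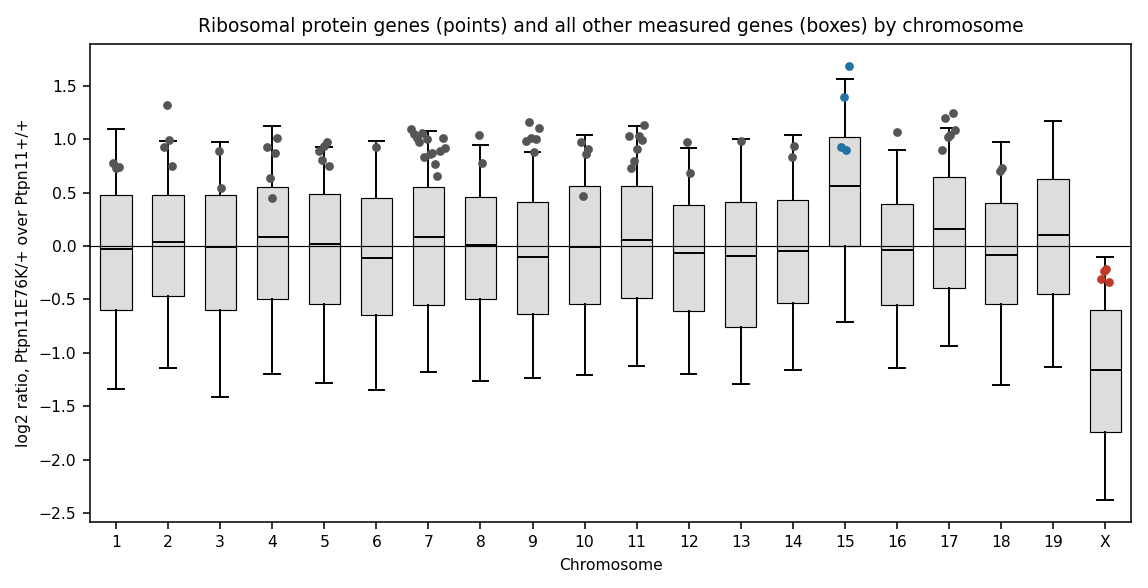
Log2 ratio, mutant over control, by chromosome. Points are ribosomal protein genes, and boxes show all other measured genes (median, quartiles, and whiskers from the 10th to the 90th percentile). The X-linked members lie between -0.34 and -0.22, above a box median of -1.16, and chromosome 15 has a box median of 0.56.

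The members parted by chromosome. All 4 X-linked members were lower in the mutant library, and the 71 others were higher. Rps4x, the X-linked gene of the small-subunit protein eS4, had 15371 mutant and 25847 control reads, which was 1.26-fold lower (1.24 to 1.29). Rpl10, whose protein is among the last to join the large subunit, had 14096 mutant and 23326 control reads and was 1.24-fold lower (1.22 to 1.27). Rpl36a, another large-subunit gene, had 5958 mutant and 9269 control reads and was 1.17-fold lower (1.13 to 1.21). Rpl39, whose small protein lines the peptide exit tunnel, had 7396 mutant and 11499 control reads and was also 1.17-fold lower (1.13 to 1.2). Their log2 ratios lay between -0.34 and -0.22, and the next member, Rps20, stood at 0.45.

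The rest of chromosome X was lower still. Its 427 other measured genes had a median log2 ratio of -1.16, which is 2.24-fold lower in the mutant library, and 67.4% of them were called lower beyond 1.5-fold. Xist, the RNA that coats the inactive X, had 9051 mutant and 21878 control reads and was 1.82-fold lower (1.77 to 1.86). Against this median the 4 members lay above their chromosome by 0.83 (Rps4x), 0.85 (Rpl10), 0.94 (Rpl36a) and 0.94 (Rpl39) log2 units. The 67 members on chromosomes other than X and 15 had a median of 0.90 above theirs. DNA copy number was not measured in these data, and the part of the chromosome-wide difference in the members' ratios was not tested.

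Chromosome 15 stood on the other side. Its 497 other measured genes had a median log2 ratio of 0.56, with 36.4% called higher beyond 1.5-fold, while the medians of the 18 remaining autosomes lay between -0.11 and 0.16. The top ratios of all members were those of Rpl8 and Rpl30, both on chromosome 15. Rpl8, whose protein lies near the peptide-bond-forming centre, had 25214 mutant and 10408 control reads and was 3.22-fold higher (3.15 to 3.30). Rpl30 had 14508 mutant and 7314 control reads and was 2.64-fold higher (2.57 to 2.71). The other members there, Rpl3 at 1.90-fold (1.87 to 1.94) and Rpl37 at 1.87-fold (1.81 to 1.93), lay near the median of all members, 0.37 and 0.34 log2 units above their chromosome. Their intervals do not overlap those of Rpl8 and Rpl30.

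The start regions of the X-linked genes are shown with those of 4 autosomal members, to set the members that were lower beside members that were higher and carry a TOP tract. Sequences are from RefSeq on GRCm38.p6 and run 5′ to 3′ from 100 bases before to 20 bases after the annotated start. Capitals mark the pyrimidine run that begins at the first transcribed base, counted only where that base is C and at least 4 further pyrimidines follow, and CCGGAAG, the core motif of ETS factors, on either strand. The X-linked windows lie at chrX:102189372-102189491 (minus strand), chrX:74270716-74270835 (plus strand), chrX:134585554-134585673 (plus strand) and chrX:37085203-37085322 (minus strand).
Rps4x: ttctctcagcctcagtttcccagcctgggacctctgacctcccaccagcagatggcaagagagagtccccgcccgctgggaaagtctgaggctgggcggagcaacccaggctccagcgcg
Rpl10: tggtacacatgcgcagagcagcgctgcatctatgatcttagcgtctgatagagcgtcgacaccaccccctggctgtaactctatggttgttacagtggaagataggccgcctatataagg
Rpl36a: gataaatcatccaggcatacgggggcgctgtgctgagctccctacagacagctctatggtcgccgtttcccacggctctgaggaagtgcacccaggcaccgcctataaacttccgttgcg
Rpl39: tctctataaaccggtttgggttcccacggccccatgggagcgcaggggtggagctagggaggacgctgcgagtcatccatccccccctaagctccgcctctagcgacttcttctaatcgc

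The autosomal windows lie at chr2:39005112-39005231 (minus strand), chr16:33056382-33056501 (plus strand), chr7:141447551-141447670 (plus strand) and chr17:33955646-33955765 (minus strand). They are the TOP-bearing members with the highest ratios, so their difference in TOP tract from the X-linked windows was set by this choice. Rpl35a has other annotated starts too, with pyrimidine runs of 0 and 1 and no TOP tract, which are not shown.
Rpl35: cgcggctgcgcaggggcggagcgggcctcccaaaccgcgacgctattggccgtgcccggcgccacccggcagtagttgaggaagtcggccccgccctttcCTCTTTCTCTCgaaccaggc
Rpl35a: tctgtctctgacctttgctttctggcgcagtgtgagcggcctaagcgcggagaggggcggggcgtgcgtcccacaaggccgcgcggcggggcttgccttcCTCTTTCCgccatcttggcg
Rplp2: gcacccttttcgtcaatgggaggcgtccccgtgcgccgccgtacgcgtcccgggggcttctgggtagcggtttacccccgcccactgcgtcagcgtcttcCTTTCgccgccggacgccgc
Rps18: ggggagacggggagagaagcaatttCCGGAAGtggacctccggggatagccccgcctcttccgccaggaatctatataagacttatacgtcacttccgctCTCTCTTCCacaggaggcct

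The table of start regions holds 55 of the 75 members. By the letters alone 13 of these 55 genes (23.6%) had a TOP tract at an annotated start, against 2.86% of the 9935 other measured genes in the table and 3.01% of all genes in it. CCGGAAG stood on either strand in 23 of the 55 members (41.8%), between 250 bases before and 50 after the start, against 20.1% of other measured genes and 9.93% of all. The E-box CACGTG, a motif bound by MYC, stood in 6 members (10.9%), against 11.7% of other measured genes and 8.09% of all. Autosomal members with and without these letters had similar medians. Of the 51 autosomal members in the table, the 13 with a TOP tract had a median log2 ratio of 0.98 and the 38 without one 0.93. The 22 with CCGGAAG had 0.95 and the 29 without it 0.93. Of the 4 X-linked genes, 0 had a TOP tract at the annotated start and 1 had CCGGAAG, outside the window shown. The start used in these cells was not measured.

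Beyond 2-fold on other chromosomes, the leading gene was Rpl35, whose protein sits at the tunnel exit, with 2248 mutant and 1201 control reads (2.49-fold, 2.32 to 2.67). Rps2, a protein at the mRNA entry side of the small subunit, had 47360 mutant and 26571 control reads, the highest counts of any member in both libraries, and was 2.37-fold higher (2.34 to 2.41). Rpl36 was 2.30-fold higher (2.21 to 2.39) and Rpl29 2.23-fold higher (2.16 to 2.30). Rps27a, which is made as a fusion to ubiquitin, had 10205 mutant and 6222 control reads and was 2.18-fold higher (2.11 to 2.25). Rpsa, also known as the laminin receptor, had 30122 mutant and 18507 control reads and was 2.17-fold higher (2.13 to 2.21). Rpl13a, Rps28, Rpl35a, Rplp2, Rpl18, Rpl13 and Rps18 completed the calls, between 2.05-fold and 2.14-fold.

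At the low end of the autosomal members stood Rps20 and Rps12, both in the head of the small subunit. Rps20 had 10991 mutant and 10680 control reads and was 1.37-fold higher (1.33 to 1.41), and Rps12 had 10446 mutant and 10002 control reads and was 1.39-fold higher (1.35 to 1.43). Rps27 was 1.46-fold higher (1.25 to 1.70) and Rpl22 1.56-fold higher (1.49 to 1.62), neither called at 1.5-fold. Rps19, the gene most often mutated in human Diamond-Blackfan anaemia, was 1.58-fold higher (1.53 to 1.63). Rps7 followed at 1.61-fold (1.57 to 1.64).

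By role, the P-stalk, which recruits and activates the translation factors, was higher in all its parts. Rplp0, its base, had 32763 mutant and 25918 control reads (1.68-fold, 1.65 to 1.71). Rplp1 and Rplp2, the acidic arms, were 1.83-fold (1.80 to 1.87) and 2.09-fold higher (2.02 to 2.15), and Rpl12 beside them was 1.91-fold higher (1.87 to 1.95). Of 11 genes listed for the peptide exit tunnel, 8 were called higher beyond 1.5-fold and 0 lower, with a median log2 ratio of 0.80. Those not called were Rpl22, the X-linked Rpl39, and Rpl24, which is below the member minimum. The place of Rpl24 in this list is uncertain, and its 10 mutant and 11 control reads are too few for a call. In the decoding region and head of the small subunit 9 of 11 genes in the table were called higher, all but Rps20 and Rps12, with a median of 0.89. This list includes Rack1, which the name rule leaves out. Of 20 genes known from Diamond-Blackfan anaemia, 18 were called higher and 0 lower, with a median of 0.91, close to the 0.93 of all members. Rpl5 and Rpl11, whose proteins can bind the p53 inhibitor MDM2, were 1.75-fold (1.71 to 1.80) and 1.91-fold higher (1.86 to 1.96), while Mdm2 itself was 1.27-fold lower (1.19 to 1.34) and the p53 target Cdkn1a 1.12-fold lower (1.07 to 1.16). In the list of ribosome stress and p53 genes that holds these, 4 members among them, 7 of 12 were called higher and 0 lower (median 0.77). All 4 members are among the 7, so this count partly repeats the members' own shift. Over all measured genes 15.7% were called higher beyond 1.5-fold. Grwd1, a histone chaperone that binds ribosomal proteins, was 4.88-fold (4.36 to 5.47) and Trp53 2.01-fold higher (1.91 to 2.12).

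**Figure D3:**
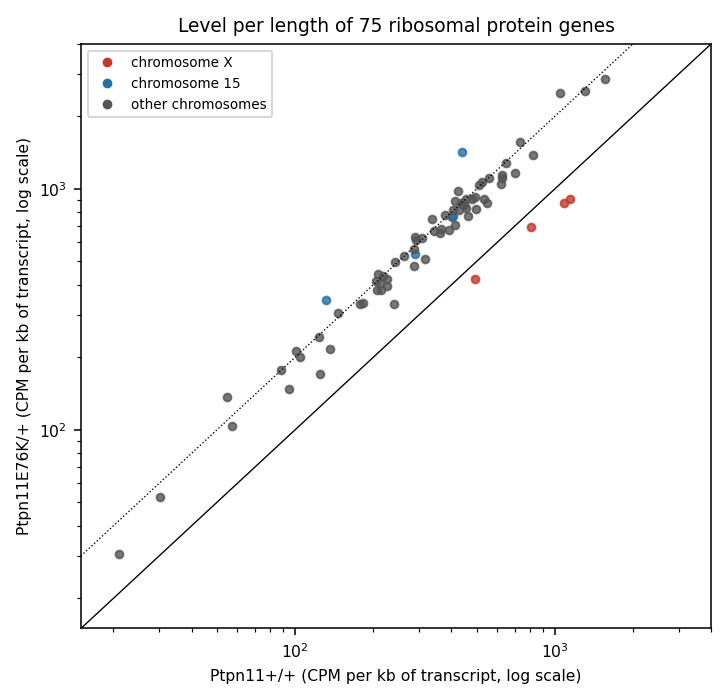
Level of each of the 75 members per length, in CPM per kilobase of its longest annotated transcript, in the mutant library (vertical) and the control library (horizontal), both on log axes. The solid line marks equal levels and the dotted line a 2-fold higher level in the mutant; X-linked genes lie under the solid line.

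Levels between genes were compared per length, in CPM per kilobase of the longest annotated transcript. The median member stood at 684.7 in the mutant library and 378.4 in the control, and the order of genes was much the same in both (Spearman's rho 0.94 across the 75 genes, which share their libraries and lengths and are not replicates). Rplp1 led with 2868 CPM per kilobase in the mutant and 1564 in the control, ahead of Rpl41, which encodes the smallest ribosomal protein, with 2558 in the mutant and 1308 in the control. Rps2 had 2490 in the mutant and 1050 in the control. In the control library Rps4x (907 mutant, 1146 control) and Rpl10 (872 mutant, 1084 control) came next after Rplp1 and Rpl41, ahead of Rps2. With the longest coding sequence as length, Rpl41 led, at 12882 in the mutant and 6587 in the control. The order below it changed with this length. In the control library Rpl39 (3249) and Rplp1 (2282) came next, ahead of Rpl10 (1571) and Rps4x (1416). Rps27, with 30.6 in the mutant and 21.0 in the control, was the lowest member per kilobase of transcript.

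Transcript length and base composition moved with the ratio over the whole table. Other measured genes with transcripts of at most 500 bases had a median log2 ratio of 0.26, those of 1000 to 2000 bases 0.19, and those over 8000 bases -0.37. Over GC content their medians went up from -0.29 at 40% or less to 0.17 above 60%. The members, with a median longest transcript of 1106 bases, had medians between 0.90 and 0.97 in every length class that held any. Once both trends had been removed the members' median log2 ratio was 0.69, and 47 of 75 were called higher beyond 1.5-fold and 0 lower. Across the 71 autosomal members the ratio had a Spearman's rho of -0.03 with transcript length, 0.21 with GC content and 0.10 with level, given as description.

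**Figure D4:**
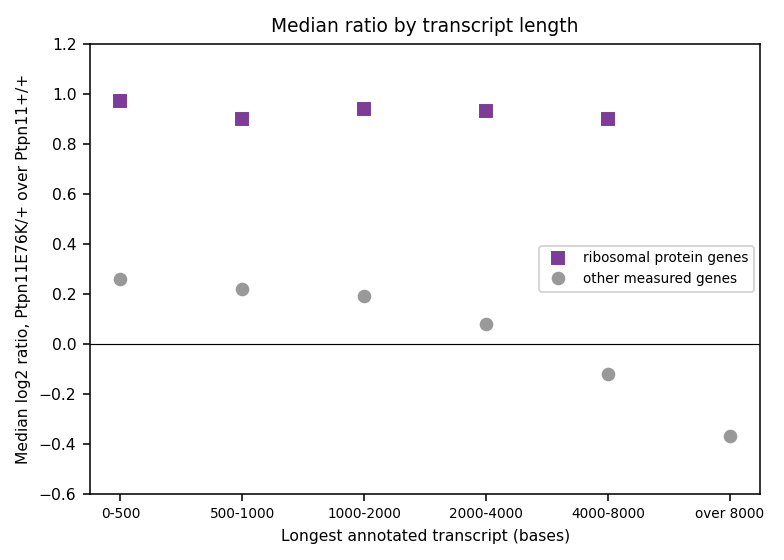
Median log2 ratio, mutant over control, of ribosomal protein genes (squares) and of all other measured genes (circles) in classes of the longest annotated transcript, in bases. The other genes run from 0.26 in the shortest class to -0.37 in the longest, and the members lie between 0.90 and 0.97.

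Reads of ribosomal protein genes can be shared with their processed pseudogenes, and the sources used here do not say how such reads were counted. As a measure of this, 50-base words of each gene's longest transcript were looked up in the transcripts of all other genes. Rps4x shared 72.2% of its words with 11 other genes, Rpl10 57.2% with 15, Rpl36a 49.1% with 9, and Rpl39 16.5% with 9. Rpl8 shared 6.49% and Rpl30 13.9%. Shares were high in some other members, such as Rpl36 (81.1%) and Rps2 (71.3%), and low in others, such as Rps28 (6.03%) and Rps19 (2.68%). The part of shared reads in the members' ratios was not tested. Members with few reads for their kind were Rps27, Rpl23a (77.6% shared) and Rpl35 (95.1% shared), and their counts are uncertain. The count of Rpl24, the symbol below the member minimum, is uncertain too, since it shared 81.7% of its words with 10 other genes. The retrocopy Rps27rt, which shares words with Rps27, had 5580 mutant and 5224 control reads, far more than Rps27 itself, and was 1.42-fold higher (1.37 to 1.48). The 250 pseudogene models whose symbol is a ribosomal protein gene name followed by -ps held 0.0164% of mutant and 0.0125% of control reads. Rps12-ps3 alone had 1678 mutant and 1568 control reads. Models under other names also share words with members and are not in these shares, such as Gm10275 with 439 mutant and 353 control reads. Of the 250 models, 19 reached 20 reads. Among these 19, Rpl10-ps3 was the single model with a ratio below 1, with 61 mutant and 164 control reads (2.02-fold lower, 1.5 to 2.76). It shares 96.1% of its words with other genes, first among them the X-linked Rpl10.

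Ribosomal proteins that the name rule leaves out are described by 3 genes, which were higher too. Rps3a1, of the small subunit, had 18223 mutant and 14299 control reads (1.70-fold, 1.66 to 1.73). Fau, which encodes a small-subunit protein fused to a ubiquitin-like one, was 1.83-fold higher (1.77 to 1.89). Rack1, a scaffold on the small-subunit head, was 1.74-fold higher (1.70 to 1.77).

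Paralogs were mixed. Rps4l, an autosomal relative of Rps4x, had 30 mutant and 691 control reads and was 17.3-fold lower (12.0 to 25.9). Unlike the other measured paralogs, it has no coding sequence in the annotation used here. It shared 14.9% of its 50-base words, all with a pseudogene model and none with Rps4x. Rpl36al, the autosomal relative of the X-linked Rpl36a, had 5057 mutant and 3103 control reads and was 2.17-fold higher (2.07 to 2.27), opposite in direction to Rpl36a. Rpl22l1, the paralog of Rpl22, was 1.32-fold higher (1.25 to 1.40), against 1.56-fold for Rpl22. Rps27l, a p53 target in human cells, was 1.2-fold higher (1.15 to 1.26), and Rpl7l1 was 1.96-fold higher (1.85 to 2.08). Rpl10l and Rpl39l, the germline relatives of the X-linked Rpl10 and Rpl39, had 0 reads in both libraries.

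**Figure D5:**
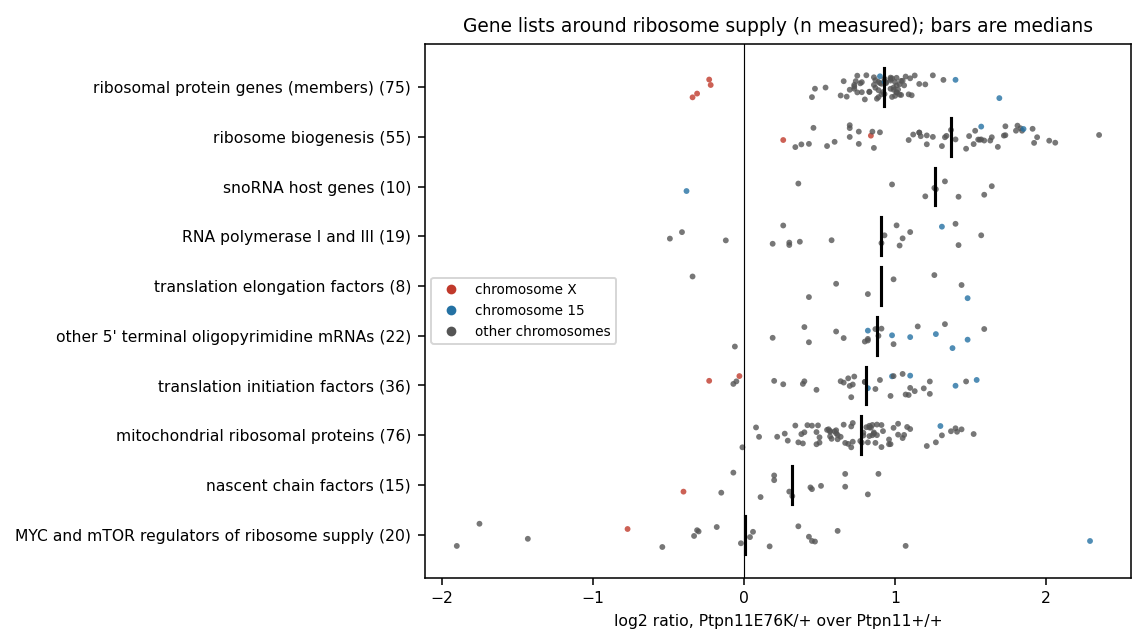
Log2 ratio, mutant over control, of the members and of 9 lists of related genes. Each point is a measured gene, coloured by chromosome, black bars are list medians, and counts of measured genes are in brackets; ribosome biogenesis has the highest median at 1.37 and the MYC and mTOR list the lowest at 0.01.

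Genes that build the ribosome were higher by more than its proteins. Of 55 measured ribosome biogenesis genes 48 were called higher beyond 1.5-fold and 0 lower, with a median log2 ratio of 1.37. For this and the lists below, the shares over all measured genes were 15.7% called higher and 15.6% called lower. Nhp2, a core protein of the RNPs that pseudouridylate ribosomal RNA, had 2170 mutant and 566 control reads (5.10-fold higher, 4.65 to 5.6). Mrto4, a large-subunit assembly factor that holds the place of Rplp0, was 4.17-fold higher (3.78 to 4.59). The lowest of the list were the X-linked Las1l (1.2-fold, 1.12 to 1.28), needed for pre-ribosomal RNA processing, and Efl1 (1.26-fold, 1.12 to 1.43), which helps release Eif6 from new large subunits. For RNA polymerases I and III, which make ribosomal RNA, 10 of 19 genes were called higher and 0 lower (median 0.91). Taf1d was 2.98-fold (2.65 to 3.36) and Polr1e 2.69-fold higher (2.26 to 3.20), while Ttf1, a termination factor, was 1.40-fold lower (1.21 to 1.64) and Taf1b 1.33-fold lower (1.12 to 1.58). For the host genes of small nucleolar RNAs, often TOP genes, 8 of 10 passed 1.5-fold upwards and 0 downwards (median 1.27), led by Zfas1 (3.11-fold, 2.85 to 3.40) and Snhg6 (3.02-fold, 2.64 to 3.46). Snhg20 was 1.28-fold higher (1.06 to 1.54) and Snhg18, on chromosome 15, 1.31-fold lower (1.14 to 1.5).

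Translation factors lay near the ribosomal proteins. Of 8 elongation factor genes 6 were called higher and 0 lower (median 0.91). Eef1d was 2.78-fold (2.66 to 2.91) and Eif5a 2.72-fold higher (2.66 to 2.79), whereas Eef1a1, the most abundant of them, had 138519 mutant and 136333 control reads and was 1.35-fold higher (1.34 to 1.36). Eef2k, which encodes the kinase that inhibits Eef2, was 1.26-fold lower (1.14 to 1.40). Of 36 initiation factor genes 26 were called higher and 0 lower (median 0.81). Eif3d was 2.90-fold (2.70 to 3.12) and Eif6 2.76-fold higher (2.62 to 2.91), and the lowest were Eif4a2, 1.05-fold lower (1.01 to 1.09), and the X-linked Eif1ax, 1.18-fold lower (1.13 to 1.23), whose log2 ratio turned from -0.23 to 0.08 without the length and GC trends. Of 22 other TOP genes 18 were called higher and 0 lower (median 0.88). Tpt1, a highly expressed TOP gene, had 20342 mutant and 23642 control reads and was 1.14-fold higher (1.12 to 1.17), though its log2 ratio turned from 0.19 to -0.10 once the length and GC trends were removed. Vim was 1.04-fold lower (1.03 to 1.05). Mitochondrial ribosomal proteins, which belong to another ribosome, had 37 of 76 called higher and 0 lower (median 0.78). Mrpl12 was 2.87-fold (2.47 to 3.35) and Mrpl47 2.73-fold higher (2.3 to 3.24), and the intervals of Mrps31 (0.847 to 1.16) and Mrps36 (0.934 to 1.19) spanned equality. Factors that meet the nascent chain had 3 of 15 called higher and 0 lower (median 0.32). That share called higher was near the 15.7% of all measured genes called higher beyond 1.5-fold. Naca was 1.85-fold (1.80 to 1.91) and Btf3 1.76-fold higher (1.70 to 1.82). Btf3l4 was 1.11-fold lower (1.03 to 1.19) and the X-linked Ssr4 1.32-fold lower (1.26 to 1.38).

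The regulators of ribosome supply did not share the block's shift. Of 20 genes 2 were called higher and 4 lower beyond 1.5-fold, with a median log2 ratio of 0.01. Among all measured genes 15.7% were called higher and 15.6% lower, so these counts lay near the shares of the whole table. Myc, on chromosome 15, had 1702 mutant and 462 control reads and was 4.90-fold higher (4.42 to 5.44), and Eif4ebp1, which encodes an mTOR target that holds back cap-dependent translation, was 2.10-fold higher (1.99 to 2.22). Pdcd4, an inhibitor of translation initiation, was 3.75-fold lower (3.23 to 4.38), and Mxd4, which encodes a MYC antagonist, 3.38-fold lower (3.12 to 3.66). Mycn, a paralog of Myc, was also lower, with 57 mutant and 205 control reads (2.7-fold, 2.01 to 3.69). The other gene called lower was the X-linked Rps6ka3, an RSK kinase gene, at 1.71-fold (1.6 to 1.82).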

How the data were processed

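Polyadenylated RNA of sorted MSPC was measured in 1 library per genotype. Per the labels' protocols, RNA was enriched for polyadenylated transcripts with an Oligotex kit. The authors deposited unnormalized whole-number counts of reads for 35275 Ensembl identifiers. The submitters' processing notes list CASAVA, TopHat, edgeR and mm9, with versions unstated. The sources used here name no read counter, annotation release or strand setting, so reads of overlapping or near-identical genes can be shared. Replicates are mentioned in the design text, while the table analysed here has 1 column per genotype.

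Symbols were found for 34490 identifiers, and chromosome, length and GC content come from GENCODE M21, on another build than mm9, so no coordinates are given for the counts, and those printed belong to RefSeq start regions on GRCm38.p6. Library totals were multiplied by TMM factors (edgeR 4.0.16, R 4.3.3; 0.9653 mutant, 1.0359 control), and CPM uses these totals. Folds carry 95% exact Clopper-Pearson intervals (SciPy 1.17.1), which cover counting error only. Log2 ratios use a prior count of 0.5. Genes with 20 reads over both libraries were called measured. The interval and the call rules were run on simulated counts that held counting error only, the error the interval assumes. There 95.6% of intervals held the true ratio, and 2.08% of genes changed by 2-fold were called beyond 2-fold. Variation between libraries was not simulated, so the run does not check it.

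Members and lists were chosen with earlier results of these data known. Named genes are the 10 highest and 10 lowest members by ratio, the 8 highest by level per length, the members next to the count minimum, all stalk, paralog and name-rule exceptions, the extremes of each list, Ptpn11 and the sort genes. Further names (Xist, Rpl3, Rpl37, Rpl5, Rpl11, Rpl23a, Rpl10-ps3, Mycn, Rps6ka3, the remaining calls beyond 2-fold and the X-linked and chromosome 15 genes of other lists) were chosen after their values were seen. Some genes are not reported here. Among the genes of RNA quality, Malat1 was 1.70-fold lower (1.67 to 1.73), Neat1 1.57-fold lower (1.52 to 1.62) and mt-Nd1 1.67-fold higher (1.65 to 1.70) and Hist1h1c 1.59-fold higher (1.51 to 1.66) in the mutant library, and 2 of 12 measured were called higher and 2 lower beyond 1.5-fold. Alternatives were other library scalings, including DESeq2 1.42.0 size factors, and other count minimums, interval levels and prior counts. Further ones removed trends over length and GC content or added the reads of pseudogene models named after a member. Scaling without chromosomes X and 15, ratios relative to each chromosome's median, and coding length were added after seeing the data.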

Additional observations from a re-analysis of the deposited data

How the results depend on the processing

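No paired analysis was possible because each genotype has 1 library. In every alternative run here, 0 members were called lower, the members not on chromosome X all stayed above a log2 ratio of 0, and, except relative to the chromosome median, the 4 X-linked members stayed below it. Members called higher beyond 2-fold numbered 15 as reported, 6 with total counts (8.0%, against 5.75% of all measured genes) and 9 when the member genes were left out of the totals (12.0%, against 6.21%). They numbered 5 with totals that omit the top 100 genes by abundance (6.67%, against 5.53%) and 4 with length and GC trends removed (5.33%, against 6.36%), so the members' share beyond 2-fold was near or below that of all genes in these settings. Beyond 1.5-fold they numbered 47 to 67, and the 47, without the trends, were 62.7% of members, against 14.5% of all measured genes. The members' median log2 ratio (0.93 as reported) was 0.82 with total counts, 0.90 with upper-quartile factors, 0.86 without the member genes, 0.80 without the 100 most abundant, 0.69 without the length and GC trends, 0.92 with TMM without chromosomes X and 15, and 0.89 relative to the chromosome median. In the same order the large subunit had 0.83, 0.91, 0.87, 0.81, 0.69, 0.92 and 0.92, the small subunit 0.80, 0.87, 0.83, 0.77, 0.69, 0.89 and 0.85 (0.91 with members at 1000 counts), and the X-linked members -0.37, -0.30, -0.34, -0.40, -0.49, -0.28 and, relative to the chromosome median, 0.89, a change of direction that its construction gives. The median of all measured genes (0.01) was -0.10 with total counts, -0.02, -0.06 and -0.12 in the next 3 scalings, 0.0 in the last 3, 0.04 at 100 counts, -0.04 at 1 count and 0.01 with DESeq2 size factors or a prior count of 2. The members' median minus that of all genes (0.92), which a library scaling cannot move, was 0.68 without the trends, 0.89 at 100 counts or relative to the chromosome median, and 0.97 at 1 count. The members' share of reads was 6.19% in the mutant and 3.55% in the control against totals without the members. It was 7.47% and 4.47% against totals without the 100 most abundant genes. With the reads of pseudogene models named after a member added, it was 5.84% and 3.44%. Of 88 named genes, 0 changed sign among those called beyond 1.5-fold. Among the others, removing the trends turned Tpt1 from 0.19 to -0.10, Eif1ax from -0.23 to 0.08 and the blood cell marker Itga2b from 0.11 to -0.02, and Itga2b stood at -0.01 without the 100 most abundant genes. Relative to the chromosome median the 4 X-linked members, Eif1ax (0.93) and Ssr4 (0.77) lay above 0.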

Other observations

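The other genes of ribosome supply and translation were also set out by chromosome. Over the lists of biogenesis, RNA polymerases, elongation and initiation factors, TOP genes, nascent chain factors, small nucleolar RNA hosts and mitochondrial ribosomal proteins, 5 measured genes lay on chromosome X and had a median log2 ratio of -0.03, with 2 above 0 and 3 below. The 13 on chromosome 15 had a median of 1.31, with 12 above 0 and Snhg18 below at -0.38. The 210 on other chromosomes had a median of 0.84, with 200 above 0 and 10 below. On chromosome 15, Bop1, a large-subunit assembly factor, stood at 1.85, Snu13, a box C/D RNP protein, at 1.57, and the initiation factor 3 subunit genes Eif3d, Eif3l, Eif3h and Eif3e at 1.54, 1.40, 1.10 and 0.82. On chromosome X, Dkc1, the pseudouridine synthase of box H/ACA RNPs, was the highest at 0.84, while Eif2s3x stood at -0.03. These groups were formed after the values had been seen, and their differences were not tested.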
